A study of Mus musculus with 6 samples.

Results

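The genes described here are 10 that encode partner proteins of the lysine acetyltransferase KAT8, also known as MYST1 or MOF, out of 17152 genes tested. They were chosen by symbol among the subunits of the 2 KAT8 complexes, and the NSL subunit gene *Wdr5* is not one of them. 3 of them belong to the male-specific lethal (MSL) complex, namely *Msl1*, *Msl2* and *Msl3*. The other 7 belong to the non-specific lethal (NSL) complex, namely *Kansl1*, *Kansl2*, *Kansl3*, *Mcrs1*, *Phf20*, *Hcfc1* and *Ogt*. Their expression was measured by RNA-sequencing in 3 *Pax7WT* and 3 *Pax7KR* libraries, each prepared with 15 ng of RNA from satellite cells that had just been isolated from uninjured hindlimb muscle. *Pax7KR* mice carry arginine in place of an acetylated lysine that lies between the paired domain and the homeodomain of PAX7, a change made with Cas9 in zygotes, and the animals of both genotypes are C57BL/6J. The study used wild-type littermates as controls and mice of 6 to 8 weeks. The sort kept cells positive for α7-INTEGRIN and CD34 and left out those with the endothelial marker CD31, the myeloid marker CD11b, the leukocyte marker CD45 or SCA-1, and the number of mice behind a library is not given in the sources used here. The comparison addresses whether the genes of the KAT8 complexes are expressed at another level when PAX7 can no longer be acetylated at this lysine, since KAT8 was the acetyltransferase that the study tied to PAX7.

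Satellite cells are the stem cells of skeletal muscle and are marked by the transcription factor PAX7. KAT8 places acetyl groups on histone H4, and the subunits around it decide where and on what it acts. In the MSL complex MSL1 is the scaffold that holds MSL2, a RING-type ubiquitin ligase, and MSL3, a chromodomain protein. In the NSL complex KANSL1 is the scaffold, PHF20 reads methylated lysines, MCRS1 is shared with a chromatin remodeller, HCFC1 is a large adaptor that also serves many other chromatin complexes, and OGT is the enzyme that attaches O-linked N-acetylglucosamine to nuclear and cytosolic proteins. In flies the MSL complex acts on the male X chromosome, while the NSL complex binds promoters of housekeeping genes in both flies and mammals.

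The libraries held 17822367 to 27908054 estimated reads. The edited gene itself was expressed in all of them: *Pax7* was at 1666, 1506 and 1480.1 CPM (normalized read counts scaled to library size) in *Pax7WT* and at 1409.8, 1460.4 and 1637 CPM in *Pax7KR*, groups that overlapped. The substitution changes a codon and not the gene's dosage, so this level does not check the genotype labels. The summed level of 9 satellite cell markers was 6785 to 7254 CPM in *Pax7WT* and 7056 to 7325 CPM in *Pax7KR*, and 0 of the 9 passed the test. Markers of other cells that muscle holds were lower, with 6 endothelial markers at 247 to 317 CPM in *Pax7WT* and 282 to 337 CPM in *Pax7KR*, 5 of 6 immune markers tested at 13.6 to 15.7 and 11.4 to 15.9 CPM, *Cd3e* at 0 in every library, and 4 erythroid markers at 188 to 369 and 324 to 547 CPM. 5 fibro-adipogenic markers summed to 624 to 685 and 636 to 705 CPM, and 5 smooth muscle and pericyte markers, among them *Notch3*, to 2383 to 2728 and 2240.3 to 2447 CPM. Every one of these ranges overlapped between the genotypes. 0 of these markers passed the test, but neither did any of the 17152 genes. All 4 erythroid markers were higher in *Pax7KR* (median log2 fold change 0.67) and all 5 smooth muscle and pericyte markers lower (-0.18). Of the endothelial, immune and fibro-adipogenic markers, 5, 4 and 3 were higher and 1, 1 and 2 lower. Their part in the members' values was not tested. Libraries also differed in ways the genotype does not explain, in genes chosen here after their values were seen. *Pax7KR* replicate 2 had *Ddx3y*, a Y-linked RNA helicase, at 52.0 CPM against 117 to 135 CPM in the other 5 libraries. *Pax7WT* replicate 2 had the immediate early gene *Fos* at 3483 CPM against 4969 to 6729 CPM in the others. With either library or both left out, 0 of the 10 members passed the test. Few genes passed at all: 5 without *Pax7KR* replicate 2, 4 without *Pax7WT* replicate 2 and 7 without both. The members' values without these libraries are given where they change a direction.

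All 10 partner genes and *Kat8* were expressed in every library. Levels of different genes are compared in TPM, a share of all transcripts that accounts for transcript length. The TPM of a gene sums all of its transcripts, shorter and non-coding ones included. *Ogt* stood far above the rest at 219 ± 11.4 TPM (SD over 6 libraries), with a range of 199 to 234 TPM. That is 2.50-fold the level of the next gene, *Msl1*, and above the mean level of 97.1% of the genes tested. *Msl1*, the MSL scaffold, followed at 87.7 ± 5.68 TPM and *Kansl2* at 72.2 ± 3.74 TPM. The ranges of *Ogt*, *Msl1*, *Kansl2* and the gene below it, *Msl2* (55.5 ± 2.45 TPM), did not overlap. *Msl2* and *Kansl3* (53.1 ± 3.22 TPM) overlapped in range, and *Msl2* was the higher in 4 of 6 libraries. *Kansl3* was above *Mcrs1* (47.0 ± 2.65 TPM) in 6 of 6 libraries, although their ranges overlapped. *Mcrs1* was above *Kansl1* (46.5 ± 6.90 TPM) in 3 of 6 libraries, and *Kansl1* above *Hcfc1* (43.7 ± 1.92 TPM) in 4 of 6, both with overlapping ranges. *Hcfc1* was above *Msl3* (35.6 ± 2.32 TPM) in 6 of 6 libraries with no overlap. *Msl3*, *Kat8* (32.5 ± 2.10 TPM) and *Phf20* (30.3 ± 4.71 TPM) overlapped at the low end, where even *Phf20* was above 70.9% of the genes tested. The mean level of the catalytic subunit was thus below that of 9 of these 10 partners, though its range overlapped that of *Msl3*. The order of the summed levels need not hold for single transcripts. The coding transcripts with the most reads of *Msl1*, *Kansl2* and *Msl2* had mean levels of 26.1, 33.6 and 38.2 TPM, the reverse of the order of these 3 genes. *Pax7WT* replicate 1 gave the highest *Phf20* value, 38.5 TPM against 25.3 to 32.5 TPM in the others. The CPM value of *Phf20* was not the highest in that library. There the short transcripts Phf20-207 (453 bases) and Phf20-203 (605 bases) held 48.9 and 51.9 reads. The average effective length of *Phf20* transcripts, weighted by TPM, was 3245 bases, against 4511 to 5355 bases in the others. It is another measure than the annotated lengths given for Phf20-207 and Phf20-203. The part of these reads in the TPM value was not tested.

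**Figure D1:**
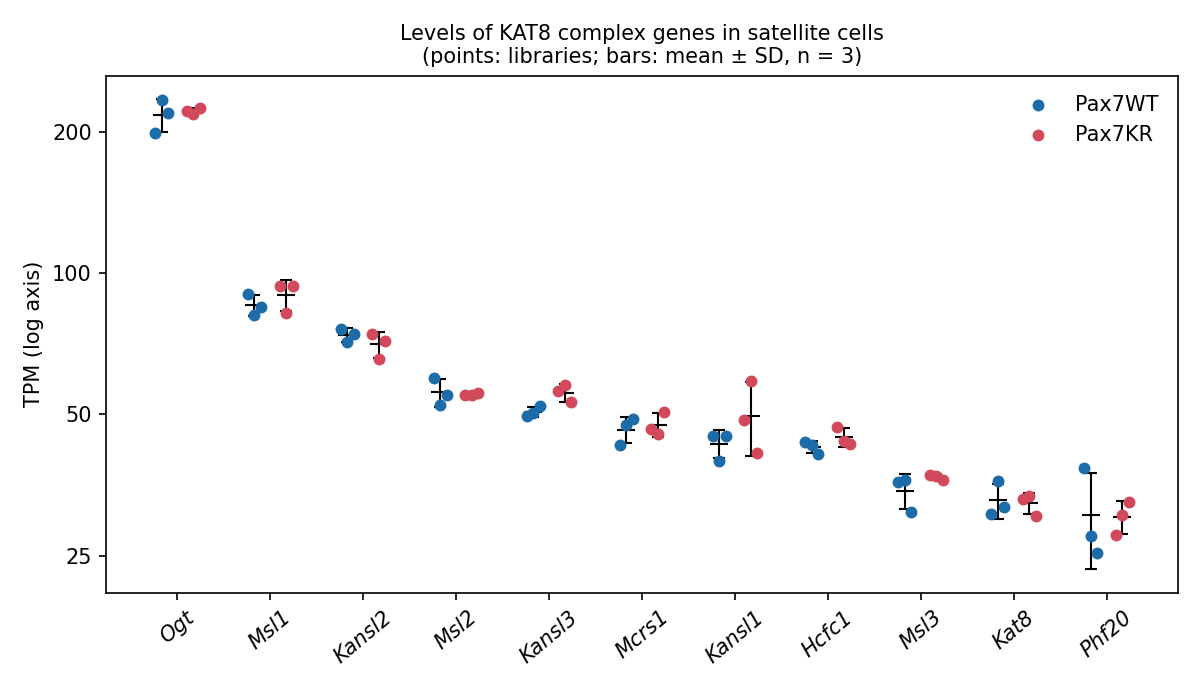
Level in TPM (log axis) of the 10 partner genes and Kat8 in each library, ordered by the mean over 6 libraries, with points for libraries and bars for the mean ± SD of 3 libraries per genotype. Ogt lies at 199 to 234 TPM and every other gene below 94 TPM, with Pax7WT and Pax7KR side by side at each gene.

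Between the genotypes, none of the partner genes passed the test. Their median absolute log2 fold change was 0.072. It was 0.061 over the 7651 genes at a mean of 20 CPM or more, and 0.114 over all genes. 0 of 10 reached an adjusted p of 0.1 in edgeR's quasi-likelihood test, against a background of 0.0% of the 17152 genes, the smallest adjusted p over all genes being 0.302. At an unadjusted p under 0.05 there were 0 of 10 members, against 4.68% (803) of all genes. DESeq2 called 0 of the 10, against 0.175% (30) of all genes. 6 members had a higher and 4 a lower mean level in *Pax7KR*, with a median log2 fold change of 0.028 beside -0.0037 over all genes. The log2 fold changes ran from -0.11 for *Msl2* to 0.15 for *Phf20*. The 95% intervals of all 10 lay between -0.26 and 0.30, which is 0.837-fold to 1.23-fold, so in this fit larger changes lie outside the interval of every member. Intervals of the alternative fits are not given here and may be wider. In 3 of 10 members the *Pax7WT* and *Pax7KR* libraries did not overlap in CPM, against 10.3% of all genes. RNA of sorted cells was measured in bulk, so a lower level per cell and fewer cells expressing a gene cannot be told apart.

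**Figure D2:**
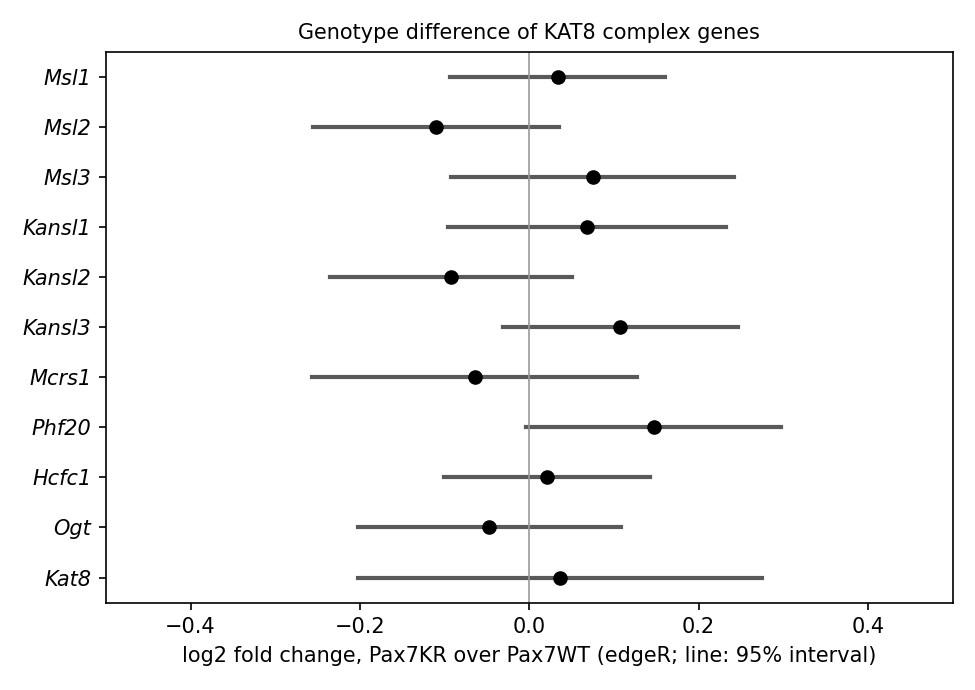
Log2 fold change of Pax7KR over Pax7WT for the 10 partner genes and Kat8 (points), with 95% intervals from edgeR (lines). All intervals include 0, and those of the 10 partners lie between -0.26 and 0.30.

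The MSL genes were even across the libraries. *Msl1* (chr11:98795516-98807859, plus strand, GRCm38 as for all coordinates here) was at 116, 115 and 108 CPM in *Pax7WT* and at 117, 116 and 114 CPM in *Pax7KR*. The groups overlapped, and the log2 fold change was 0.034 (SE 0.059, edgeR adjusted p = 0.998). *Msl2* (chr9:101074101-101104800, plus strand) was at 144, 124 and 133 CPM in *Pax7WT* and at 120.2, 123 and 128 CPM in *Pax7KR*. *Pax7WT* replicate 1 was the highest library, while *Pax7WT* replicate 2 lay among the mutant libraries. The log2 fold change of *Msl2* was -0.11 (SE 0.067, edgeR adjusted p = 0.992). *Msl3* (chrX:168654117-168673898, minus strand) was at 40.4, 40.5 and 36.6 CPM in *Pax7WT* and at 40.6, 40.5 and 42.7 CPM in *Pax7KR*, where 5 of 6 libraries lay within 40.4 to 42.7 CPM. The log2 fold change of *Msl3* was 0.075 (SE 0.078, edgeR adjusted p = 0.998).

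Of the KANSL subunits, which carry the name of the NSL complex, *Kansl1* (chr11:104333229-104468861, minus strand) was at 136, 122.5 and 131 CPM in *Pax7WT* and at 137, 149 and 122 CPM in *Pax7KR*. The highest and the lowest library were both *Pax7KR*. Its log2 fold change was 0.068 (SE 0.076) and became -0.0039 without *Pax7KR* replicate 2. *Kansl2* (chr15:98517658-98534264, minus strand) was at 92.4, 88.6 and 89.2 CPM in *Pax7WT* and at 88.3, 78.4 and 86.8 CPM in *Pax7KR*. The groups did not overlap, but the lowest *Pax7WT* library, 88.6 CPM, and the highest *Pax7KR* library, 88.3 CPM, were nearly level. For *Kansl2* the log2 fold change was -0.092 (SE 0.066, edgeR adjusted p = 0.992). *Kansl3* (chr1:36335730-36369181, minus strand) was at 112, 119.7 and 121.2 CPM in *Pax7WT* and at 124, 135 and 121.7 CPM in *Pax7KR*, again with no overlap and with neighbouring libraries of the 2 groups nearly level. For *Kansl3* the log2 fold change was 0.11 (SE 0.064, edgeR adjusted p = 0.992). None of the 3 passed the test.

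*Phf20* (chr2:156196466-156309952, plus strand), whose product reads methylated lysines through Tudor domains, had the lowest p-value of the members. It was at 77.7, 86.5 and 74.2 CPM in *Pax7WT* and at 87.3, 86.9 and 89.65 CPM in *Pax7KR*. All mutant libraries were above all wild-type libraries, the closest pair being 86.9 and 86.5 CPM. The log2 fold change was 0.15 (SE 0.070, unadjusted p = 0.055, adjusted p = 0.992 in edgeR), a fold of 1.11 with a 95% interval of 0.998 to 1.23, and it turned to -0.071 when edgeR used the average transcript length per library as an offset. *Mcrs1* (chr15:99242817-99251961, minus strand), whose product is also a subunit of the INO80 chromatin remodeller, was at 40.8, 42.1 and 36.8 CPM in *Pax7WT* and at 36.9, 35.6 and 42.0 CPM in *Pax7KR*. The groups overlapped over nearly their whole range, the log2 fold change was -0.064 (SE 0.089), and it was 0.022 without both replicates numbered 2, an alternative chosen after seeing the data.

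*Hcfc1* (chrX:73942792-73966357, minus strand) and *Ogt* (chrX:101640060-101684351, plus strand) are the members with the most reads. *Hcfc1* was the steadiest, at 202, 196 and 198 CPM in *Pax7WT* and at 207, 202 and 197 CPM in *Pax7KR*. Its log2 fold change was 0.022 (SE 0.056, 95% interval -0.10 to 0.14). *Ogt* was at 486, 570.0 and 549 CPM in *Pax7WT* and at 510.2, 501 and 542 CPM in *Pax7KR*, with the *Pax7KR* libraries lying inside the *Pax7WT* range. Its log2 fold change was -0.047 (SE 0.072, 95% interval -0.20 to 0.11), and it was 0.00046 without *Pax7WT* replicate 2, the library with the highest *Ogt* and the lowest *Fos*. The median log2 fold change over 555 X-linked genes was -0.0051, so the 3 X-linked members stood beside a chromosome with a median near 0. *Kat8* itself (chr7:127912516-127925837, plus strand) was at 21.2, 25.7 and 20.8 CPM in *Pax7WT* and at 23.1, 24.8 and 21.5 CPM in *Pax7KR*. Its log2 fold change was 0.036 (SE 0.11, 95% interval -0.20 to 0.28), and turned to -0.084 with the length offset.

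The deposited values are per transcript, and the members differed in which transcripts held their reads. Reads that fit several transcripts are divided between them by estimation, so a share is an estimate. Transcript classes are those of the GENCODE annotation, in which a retained intron transcript keeps intron sequence and has no annotated protein, and a nonsense-mediated decay transcript has a stop codon placed so that the RNA is a predicted target of that pathway. *Ogt* had the largest share of reads on retained intron transcripts, 25.4% on average and 24.3% to 26.3% over the 6 libraries. That was above 86.2% of the 6610 genes with such a transcript and 100 or more reads, whose median share was 5.17%. *Msl3* followed with 23.5% (18.2% to 28.1%), *Kat8* with 17.9% (10.6% to 24.96%) and *Mcrs1* with 9.91% (3.49% to 17.2%). *Msl2* had all of its reads, and *Kansl1*, *Hcfc1* and *Phf20* nearly all, on protein coding transcripts in every library. Over all genes, retained intron transcripts held 5.01% to 5.56% of each library's reads.

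**Figure D3:**
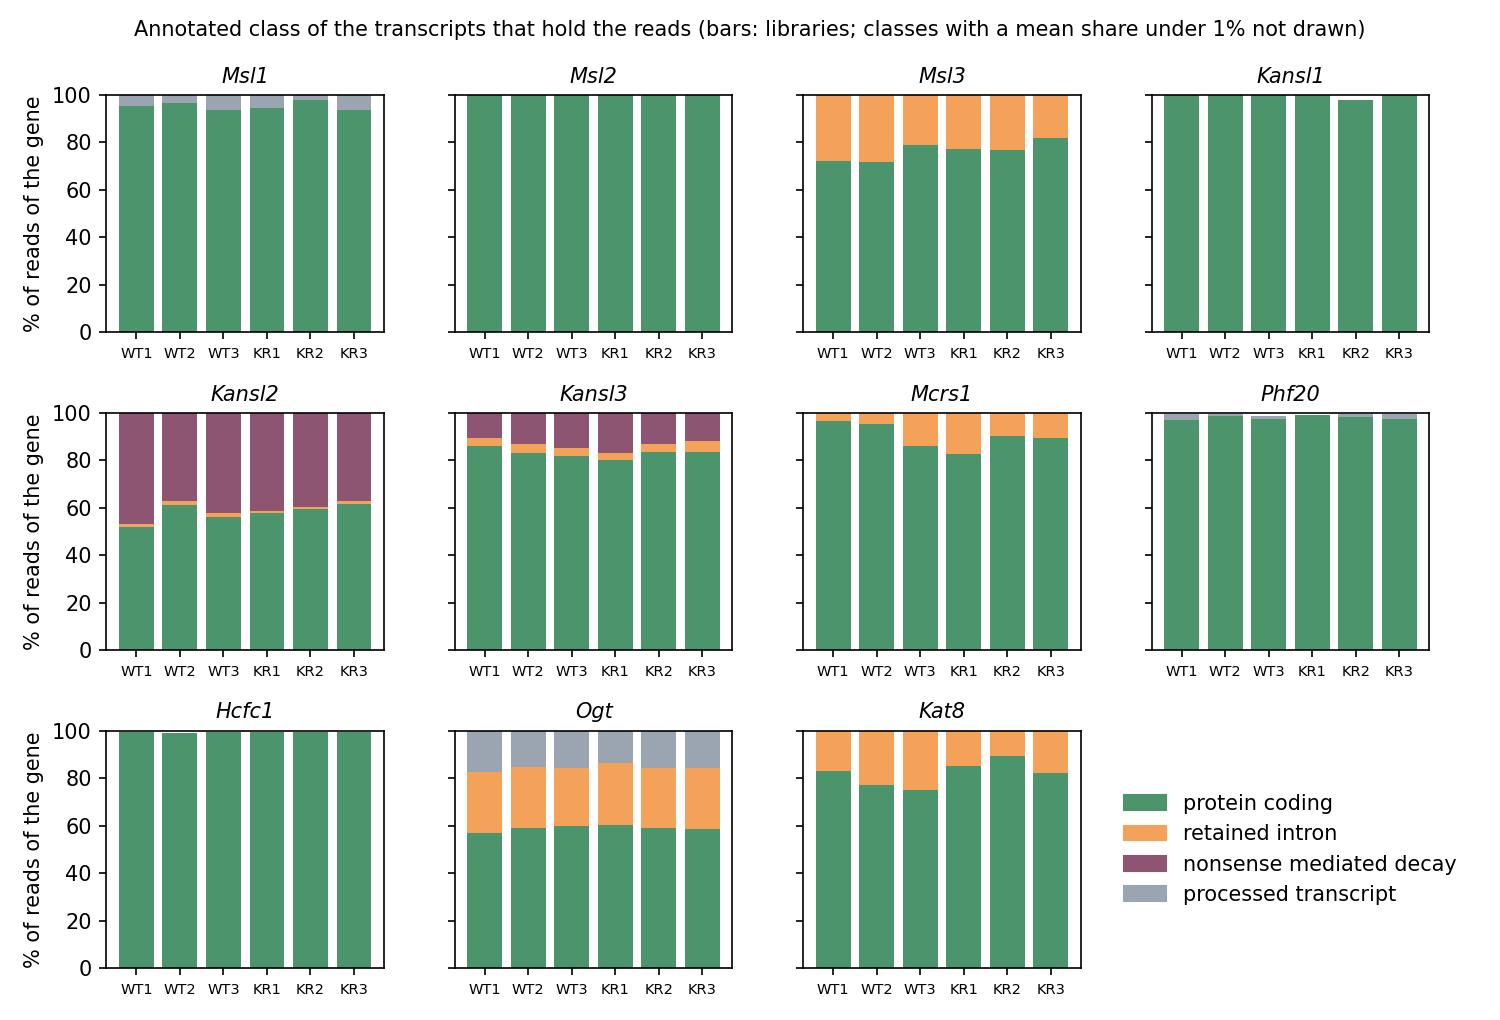
Share of each gene's reads (percent) by annotated transcript class in each of the 6 libraries (WT1 to WT3 and KR1 to KR3), for the 10 partner genes and Kat8. Ogt carries about the same retained intron share in all libraries, 24.3% to 26.3%, Kansl2 carries 37.2% to 46.7% on a nonsense-mediated decay transcript, and Hcfc1, Phf20, Kansl1 and Msl2 are protein coding almost throughout.

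The *Ogt* reads were divided among 3 transcripts in nearly constant proportions. The full-length coding transcript Ogt-201, with 1046 codons, held 57.1%, 58.1% and 57.8% in *Pax7WT* and 59.2%, 58.3% and 57.5% in *Pax7KR*. Ogt-204, a retained intron transcript that has exons 1 to 4 and then runs on for 2378 of the 3415 bases of intron 4, held 23.4%, 23.6% and 23.1% in *Pax7WT* and 24.3%, 23.0% and 24.1% in *Pax7KR*. Ogt-203, which begins with the last 279 bases of the same intron and continues through exons 5 and 6 without exon 7 (196 bases) of Ogt-201, held 17.3%, 15.0% and 15.7% in *Pax7WT* and 13.4%, 15.7% and 15.6% in *Pax7KR*. Both short transcripts thus hold an end of one intron, at chrX:101652209-101655623 on the plus strand of GRCm38. On the TPM scale Ogt-204 was at 62.4 to 74.5 and Ogt-203 at 33.4 to 39.97, beside 83.2 to 99.96 for Ogt-201. The genotypes overlapped for all 3 transcripts (two-sided exact permutation p = 0.4, 0.5 and 0.4 for Ogt-201, Ogt-203 and Ogt-204, where 3 libraries against 3 cannot go below 0.1). The boundaries of this intron are shown because the shares turn on it. Capitals mark intron 4 and lower case the neighbouring exon.
Exon 4 into intron 4, chrX:101652169-101652248, plus strand: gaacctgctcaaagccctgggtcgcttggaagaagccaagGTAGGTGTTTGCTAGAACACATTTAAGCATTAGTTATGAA
Intron 4 into exon 5, chrX:101655584-101655663, plus strand: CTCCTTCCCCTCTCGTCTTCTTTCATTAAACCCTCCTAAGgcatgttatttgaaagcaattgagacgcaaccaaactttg

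*Msl1* had a second transcript in steady use. Msl1-201, with 616 codons, held 56.1% to 61.5% of the reads over the 6 libraries. Msl1-203, with 463 codons, held 29.3%, 29.0% and 28.4% in *Pax7WT* and 27.8%, 29.7% and 30.2% in *Pax7KR*. It ends after exon 3, with 670 bases of intron 3 as its tail, and its reading frame stops after 11 bases of that intron, stop codon included. By TPM it was above Msl1-201 in 6 of 6 libraries, at 28.2 to 33.2 beside 24.03 to 28.8. The end of the shorter frame is shown with exon 3 in lower case and the intron up to the stop codon in capitals.
Msl1-203, chr11:98800343-98800393, plus strand: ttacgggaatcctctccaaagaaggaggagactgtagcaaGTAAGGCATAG

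**Figure D4:**
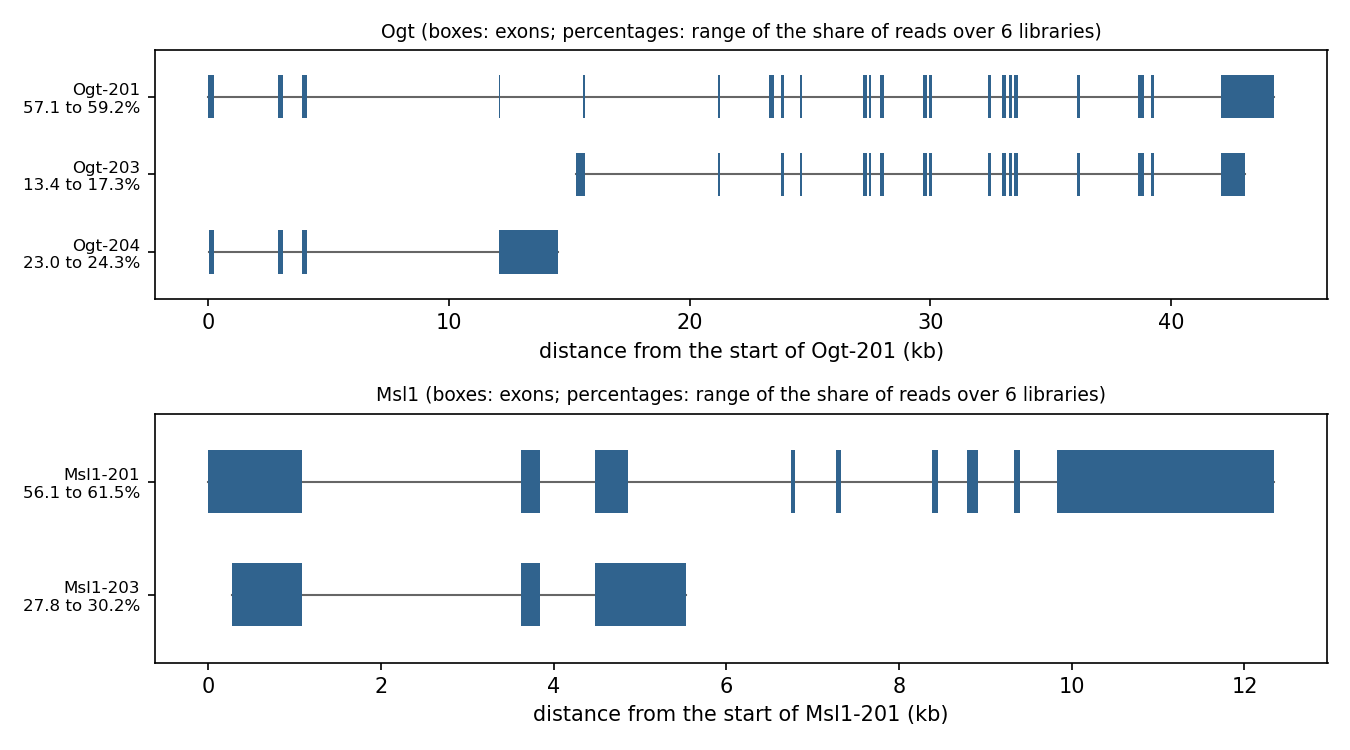
Exons (boxes) and introns (lines) of the Ogt and Msl1 transcripts that hold most of their reads, by distance in kilobases from the start of the longest one, with the range of each transcript's share of the gene's reads over 6 libraries. Ogt-204 (23.0% to 24.3%) ends inside intron 4, Ogt-203 (13.4% to 17.3%) begins further on in the same intron, and Msl1-203 (27.8% to 30.2%) ends just after exon 3.

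*Kansl2* had the largest share on a nonsense-mediated decay transcript. Kansl2-205 held 46.7%, 37.3% and 42.1% in *Pax7WT* and 41.4%, 39.8% and 37.2% in *Pax7KR*, and its mean share was above 93.4% of the 3236 genes with such a transcript, whose median share was 2.49%. The coding transcript Kansl2-202 held 44.3% to 54.5%. Kansl2-205 leaves out exon 4 of Kansl2-202, which has 115 bases and so does not keep the reading frame, and it meets a stop codon 41 bases after the new junction. This leaves 157 codons in place of 452. The first exon of Kansl2-205 has 24 bases and overlaps the first exon of Kansl2-202, which has 343 bases. Its exon 7 has 254 bases, against 152 bases in exon 8 of Kansl2-202. The genotypes overlapped (two-sided exact permutation p = 0.4). The first sequence shows the exon that is left out in capitals with 20 spliced bases on either side, and the second the junction made without it, with the stop codon in capitals.
Kansl2-202, spliced within chr15:98529434-98531739, minus strand: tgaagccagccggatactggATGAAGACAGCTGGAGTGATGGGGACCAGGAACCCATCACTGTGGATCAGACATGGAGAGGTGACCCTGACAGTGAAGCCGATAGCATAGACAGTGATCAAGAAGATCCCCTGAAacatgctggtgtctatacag
Kansl2-205, spliced within chr15:98529400-98531759, minus strand: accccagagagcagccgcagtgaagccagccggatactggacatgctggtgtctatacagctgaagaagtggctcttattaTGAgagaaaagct

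The remaining members used mostly coding transcripts. *Msl2* divided its reads between Msl2-201 (577 codons, 80.8% to 84.2%) and Msl2-202 (100 codons, 15.8% to 19.2%). *Kansl1* used Kansl1-204 (1099 codons, 64.7% to 77.7%) and Kansl1-201 (1036 codons, 21.95% to 34.9%), and *Hcfc1* used Hcfc1-201 (2045 codons, 63.2% to 73.2%) and Hcfc1-202 (2090 codons, 24.4% to 33.0%). In these genes both forms encode long proteins, apart from Msl2-202, and the genotypes overlapped. *Kansl3* had 64.3% to 80.1% on Kansl3-201 and 9.54% to 15.9% on the nonsense-mediated decay transcript Kansl3-209. Its coding transcript Kansl3-204 ran from 0.0% to 17.4% over the libraries and was at 0.0% in 2 *Pax7KR* libraries, so the division among its coding forms is uncertain. *Msl3* had 60.5% to 68.5% on the coding transcript Msl3-202 and 17.6% to 26.3% on the retained intron transcript Msl3-203. Its other coding transcript, Msl3-201, was uneven too, at 4.58%, 3.37% and 18.4% in *Pax7WT* and 15.6%, 13.0% and 15.7% in *Pax7KR*. The genotypes overlapped for all of these *Msl3* transcripts. By reads *Phf20* was nearly a single-transcript gene, with 94.8% to 99.1% on Phf20-201. On the TPM scale this did not hold in every library, as Phf20-201 was at 20.9 of the 38.5 TPM of the gene in *Pax7WT* replicate 1.

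Among 25 member transcripts that held a mean of 5% or more of their gene's reads, 1 had genotypes that did not overlap, against a background of 10.1% of 23604 transcripts. This was Mcrs1-201, the main coding transcript of *Mcrs1* with 462 codons, which held 87.7%, 80.3% and 82.7% in *Pax7WT* and 72.6%, 71.2% and 78.8% in *Pax7KR*. The difference was -9.33 percentage points (two-sided exact permutation p = 0.1, the smallest that 3 against 3 allows). The other *Mcrs1* transcripts were spread within a genotype, as in Mcrs1-202, a coding form of 449 codons, at 8.20%, 14.7% and 2.02% in *Pax7WT* and 9.19%, 17.3% and 10.6% in *Pax7KR*. *Kat8*, which is no member of the 10, had no overlap in 2 of its 3 such transcripts. Its coding transcript Kat8-201 (458 codons) held 78.1%, 76.1% and 72.2% in *Pax7WT* and 82.3%, 87.9% and 79.3% in *Pax7KR*. The retained intron transcript Kat8-204 held 7.86%, 6.62% and 12.1% in *Pax7WT* and 4.50%, 4.36% and 6.08% in *Pax7KR*. Both gave a two-sided exact permutation p of 0.1, and these shares sum to 100% with the other transcripts of the gene and so are not independent. They rest on 426 to 591 *Kat8* reads a library, of which Kat8-204 held only 23.8 to 51.4. The summed retained intron share of *Kat8* overlapped between genotypes.

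3 members share much sequence with other genes, which limits what can be said of their values. Of the 31-base sequences in *Kansl2* transcripts, 37.0% also occur in transcripts of other genes, 35.4% in Kansl2-ps. For *Mcrs1* it was 34.5%, of which 30.6% in Gm13127, and for *Phf20* it was 12.7%, of which 12.3% in Phf20-ps. Kansl2-ps and Gm13127 were given 0 reads in all 6 libraries and Phf20-ps 0 to 5 reads. How reads were divided between these genes and their copies is set by the estimation, and the values of these members are uncertain to that extent. *Kat8* shared 12.7% with other genes, *Msl1* 5.21% and *Kansl1* 1.59%, and the other members under 0.3%. *Msl1* also overlaps *Casc3* on the same strand.

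Genes that work beside these complexes were read from the same fit. Of 6 further subunits and paralogues, *Kat8* not counted, 1 was higher and 5 lower in *Pax7KR* and 0 passed the test. *Wdr5*, a WD40 subunit of the NSL complex and of the MLL/SET methyltransferases, was at 54.5 to 63.2 CPM in *Pax7WT* and 54.8 to 58.5 CPM in *Pax7KR*, with a log2 fold change of -0.038 (SE 0.074). *Phf20l1*, the paralogue of *Phf20*, was at 54.4 to 65.1 TPM over the libraries, above every *Phf20* value, with a log2 fold change of -0.012 (SE 0.070). *Kansl1l* was at 22.03 to 34.4 TPM (log2 fold change 0.11, SE 0.14) and *Hcfc2* at 20.9 to 22.1 TPM (-0.061, SE 0.074), each below the paralogue in the complex in all libraries. *Msl3l2*, a copy of *Msl3*, was at 8.51 to 10.9 TPM (-0.050, SE 0.14). *Dhx9*, the mammalian counterpart of the fly MSL helicase, was at 92.2 to 97.2 TPM (-0.059, SE 0.056).

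Of 6 MYST-family acetyltransferases and H4K16 deacetylases other than *Kat8*, 4 were higher, 2 lower and 0 past the test. The lowest p-values were those of *Kat6a* (log2 fold change 0.075, SE 0.063) and *Kat7* (-0.058, SE 0.060). Of 18 genes whose products work with HCFC1, 9 were higher, 9 lower and 0 past the test, with 2 at an unadjusted p under 0.05. *Zfp143*, a zinc finger factor that recruits HCFC1 to promoters, was at 37.2, 31.6 and 38.3 CPM in *Pax7WT* and at 30.3, 30.8 and 29.8 CPM in *Pax7KR*. Its groups did not overlap, with a log2 fold change of -0.24 (SE 0.091, edgeR adjusted p = 0.992). *Cxxc1*, a CpG-binding subunit of the SET1 complexes, was at 77.7, 100.4 and 95.03 CPM in *Pax7WT* and at 107, 99.2 and 114 CPM in *Pax7KR*, which overlapped (log2 fold change 0.23, SE 0.093, edgeR adjusted p = 0.992).

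Around OGT, 8 genes of O-GlcNAc cycling and the hexosamine pathway were tested, *Ogt* itself not counted, with 3 higher, 5 lower and 0 past the test. *Tet2*, whose product is an OGT-binding DNA dioxygenase, had a log2 fold change of -0.12 (SE 0.081), and *Gfpt1*, the entry enzyme of the hexosamine pathway, of 0.12 (SE 0.079). Around MCRS1, 14 INO80 subunits were tested, *Mcrs1* itself not counted, with 7 higher, 7 lower and 0 past the test. The lowest p-values were those of *Ino80b* (log2 fold change 0.20, SE 0.12) and *Ruvbl1* (0.11, SE 0.090). The medians of these lists without *Kat8* and the 10 members, -0.044 for further subunits, 0.035 for MYST genes and deacetylases, 0.011 for HCFC1 partners, -0.053 for the O-GlcNAc genes and -0.00027 for INO80, lay beside -0.0037 over all genes tested.

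Lists of sex-linked and isolation-response genes were read for the state of the libraries. Of 10 sex-linked genes 3 were higher and 7 lower in *Pax7KR*, with a median log2 fold change of -0.33, and 0 passed the test. The Y-linked *Kdm5d*, *Uty* and *Eif2s3y* were, like *Ddx3y*, lowest in *Pax7KR* replicate 2, at 26.0, 14.3 and 38.4 CPM. In the other libraries they were at 58.7 to 70.9, 37.45 to 42.25 and 77.0 to 114 CPM. The part of this replicate in the median was not tested. In 2 of the 10 the genotypes did not overlap, against 10.3% of all genes. *Xist*, which coats the inactive X chromosome in female cells, was at 1.47, 0.960 and 2.29 CPM in *Pax7WT* and at 0.437, 0.880 and 0.946 CPM in *Pax7KR*. These groups did not overlap but rest on 10 to 47 reads a library. Its antisense gene *Tsix* was at 0.0419 to 0.487 CPM in the 6 libraries. *Xist* had the lowest p-value of the list (log2 fold change -1.06, SE 0.46, edgeR adjusted p = 0.992), followed by *Tsix* (-1.74, SE 1.02). Of 17 isolation-response genes 0 passed the test, with the lowest p-values for *Myc* (log2 fold change -0.20, SE 0.072, edgeR adjusted p = 0.992) and *Egr3* (-0.82, SE 0.39).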

How the data were processed

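Libraries were prepared from total RNA with a directional kit. The authors quantified paired reads with salmon (version 1.3.0) against GENCODE transcripts of GRCm38 with genomic decoys, and deposited estimated counts per transcript, not normalized, with TPM values and effective lengths. Effective length was used only to compute average transcript lengths per gene, weighted by TPM, as for the length offset and for *Phf20*. Whether RNA was poly(A)-selected or ribosome-depleted is not given in the sources used here. A deposited table of the authors' own comparison (log2 fold changes and p-values, made with DESeq2 version 1.28.1) was not used.

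Estimated counts were summed per gene through an earlier GENCODE annotation of the same build, which matched 99.15% of 140992 transcripts (0.606% of reads unmatched and left out), and rounded. The genotype was tested with edgeR on genes that had at least 5 reads in at least 2 libraries (version 4.0.16, TMM, robust quasi-likelihood test, common biological variation 13.75%), Benjamini-Hochberg adjusted over 17152 genes, cut-off 0.1. CPM used TMM library sizes. TPM was summed per gene. Sequences and coordinates come from the same annotation and genome. Transcript shares were compared with exact permutation tests in scipy (version 1.17.1). Scripts ran in R (version 4.3.3) and Python (version 3.11.15), and the fit was tested on simulated data.

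The alternatives were DESeq2 (version 1.42.0), other size factors, a filter of 10 reads in every library or none, length offsets, a replicate block, protein coding transcripts only, omission of each library in turn and a cut-off of 0.05. Members and lists were chosen with earlier results of these data known. The text names all members, *Kat8*, *Pax7*, all further subunits and paralogues, and from other lists the genes past the cut-off or, with none, those with the lowest p-values. The study's methods speak of biological samples, while the labels of the 6 libraries give a replicate number within each genotype. No sample was left out.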

Additional observations from a re-analysis of the deposited data

How the results depend on the processing

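0 members passed the cut-off under any of the alternatives run. Of 150 member log2 fold changes over 15 settings, 143 kept their direction and 7 reversed, within -0.16 to 0.22 and with a lowest adjusted p of 0.704. With the length offset *Phf20* was -0.071 in edgeR and -0.070 in DESeq2, and *Kat8* -0.084 and -0.082. Without *Pax7KR* replicate 2, *Kansl1* was -0.0039, and without *Pax7WT* replicate 2, *Ogt* was 0.00046. Over the libraries left out *Kansl1* ranged from -0.0039 to 0.14 and *Ogt* from -0.11 to 0.00046. *Kat8* ranged from -0.020 to 0.14 over the libraries left out, at -0.0073, -0.020 and -0.017 without *Pax7WT* replicate 1, *Pax7WT* replicate 3 and *Pax7KR* replicate 2. Without both replicates numbered 2, chosen after seeing the data, *Kansl1* was -0.043, *Mcrs1* 0.022 and *Ogt* 0.023. The cause of these reversals was not tested.

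The count of members at an unadjusted p under 0.05, 0 as reported, was 1 with no filter, 1 without both replicates numbered 2, and 0 to 2 over the libraries left out, the 2 being *Msl2* and *Phf20* (adjusted p = 0.785 and 0.704 in edgeR) without *Pax7WT* replicate 2. Genes called, 0 as reported, were 30 in DESeq2, 45 in DESeq2 with the length offset, 157 with no filter, 13 with the replicate block, 7 without both replicates numbered 2, and 1 to 32 over the libraries left out, the 32 without *Pax7KR* replicate 3. Deviations of same-numbered libraries correlated at 0.0018, 0.045 and -0.056, which gave no sign of a shared effect of the replicate number. Such correlations cannot show whether the samples were paired. Under the block 0 members were called.

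The *Ogt* to *Msl1* ratio of levels was 2.43 to 2.56 and the *Ogt* retained intron share 25.3% to 25.7% over the libraries left out. Depth was lowest for *Kat8* (426 to 591 reads), followed by *Mcrs1* (745 to 1110 reads) and *Msl3* (717 to 1100 reads).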
